A study of Bombyx mori with 3 samples.

Results

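The 30 non-coding RNAs (ncRNAs) described here are those whose level in eggs most exceeded that in adult moths on a 2-colour array of silkworm (Bombyx mori, strain Dazao P50) ncRNAs of 50 to 500 nucleotides. The array carried 132 names (Bm with a number) in 3 spots each, of which 122 were measured in both egg and adult. Egg, pupa and adult were each 1 RNA pool, hybridised against 1 larval pool. The pool of eggs mixed diapaused and non-diapaused ones, that of pupae ran from day 1 to day 9 of pupation, that of adults held moths of both sexes, and that of larvae ran from instar 1 to instar 5. No stage carried a mutation or a treatment, and the animals were kept at 25 °C, in 14 h of light and 10 h of dark, from hatching. The array held no marker gene of a stage or tissue, so the stage labels could not be checked by markers.

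The members were chosen by their values. For each name, log2 stage over larva was averaged over the kept spots (flag 0 or above) of each dye orientation and then over the 2 orientations. The adult value was subtracted from the egg value, so that the larval term cancels in principle, and the 30 names with the highest difference were taken. That difference, and the egg and adult ratios behind it, are therefore given as a description, with no test. The pupal values were not used by the rule. Since each stage was a single pool, there were no biological replicates, and an SD below is over repeated spots of 1 probe only. Beside a value, Cy5 or Cy3 names the dye that the stage carried. A background limit is the 95th percentile of the 108 negative spots (blank, buffer and other negative controls) in the same channel and scan. The pools hold whole animals or eggs, so fewer cells of a type and less RNA per cell cannot be told apart.

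Small ncRNAs of this length range include the small nuclear RNAs, which work in splicing, the small nucleolar RNAs, which guide chemical modification of ribosomal RNA, and RNAs of the signal recognition particle and RNase P. Insect eggs hold RNA deposited by the mother and later the transcripts of the embryo, and silkworm embryos can arrest in diapause. The tables gave no class, sequence or genome position for the Bm names, and 0 of the 30 were found by name in the RefSeq gene table, so no member is assigned a role and no sequence is shown.

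The difference between egg and adult had a median of 0.71 on the log2 scale over the 30 members and of 0.04 over the 122 names. It ran from 0.45 at Bm-171 to 1.44 at Bm-86. A difference of at least 1 (2-fold) was found for 6 members, which are also the 6 such names of the array (4.92% of 122). Another 14 members lay between 1.5-fold and 2-fold, so 20 members were past 1.5-fold (16.4% of 122), and 10 members lay short of it. The edge of the list fell in a continuous range of values. Just inside were Bm-28 and Bm-5 (both 0.50), Bm-108 (0.48), Bm-109 (0.45) and Bm-171 (0.45). Just outside were Bm-64, Bm-97 and Bm-107 (all 0.40), Bm-151 (0.38) and Bm-101 (0.37).

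A positive difference can come from a level above larva in egg, from a level below larva in adult, or from both. At 1.5-fold, 12 members were above larva in egg and short of 1.5-fold below it in adult. These are called egg-gain members. Another 7, the adult-loss members, were at least 1.5-fold below larva in adult and not 1.5-fold above it in egg. None (0) met both conditions, and 11 met neither (96 of the 122 names), with smaller shifts that added up. Over all 122 names, 13.9% were at least 1.5-fold above larva in egg and 7.38% at least 1.5-fold below it in adult. Since the rule used both ratios, nothing is read from the excess among members. At 2-fold, 5 members were above larva in egg (4.1% of 122) and Bm-86 was below it in adult (0.82% of 122). Egg lay above larva and adult below it in 16 members (25.4% of 122), both lay above larva in 9, and both lay below it in 5. The egg ratio made up over 50% of the difference in 17 of the 30. The counts of 9, 5 and 17 were not taken over all names, so they only describe the list.

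**Figure D1:**
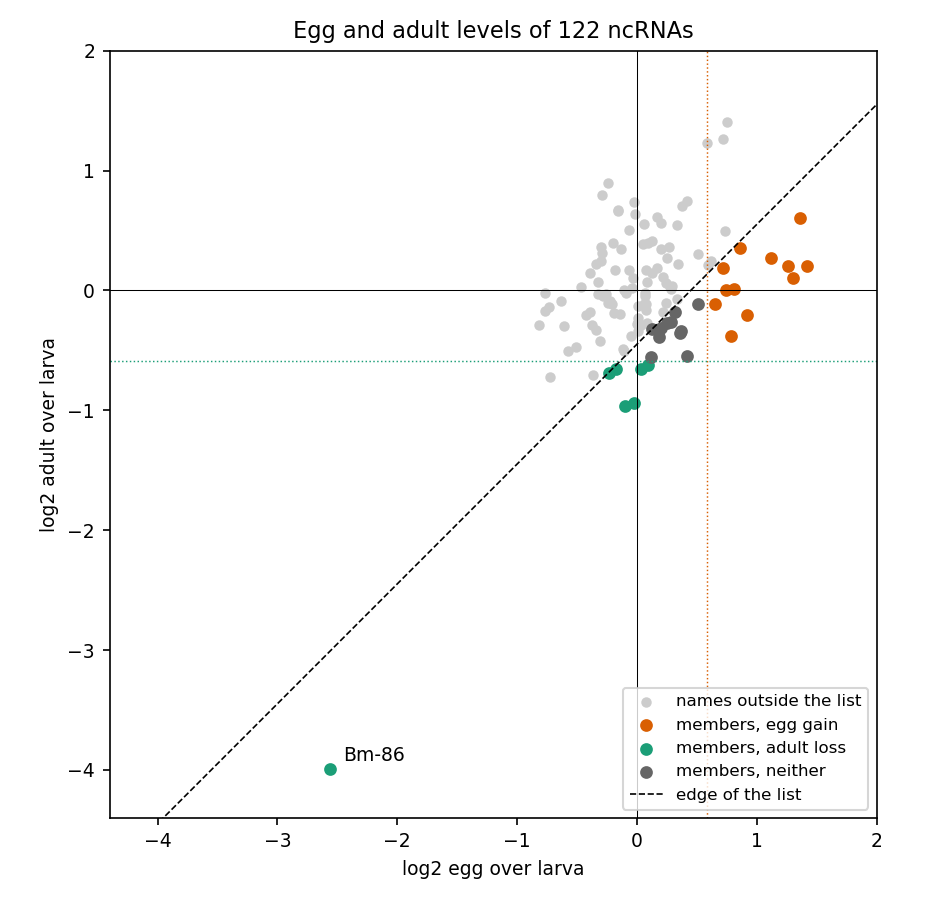
Log2 egg over larva (x axis) against log2 adult over larva (y axis) for the 122 ncRNAs measured in both, 1 point per name, with members coloured by class and a dashed line at the lowest difference in the list (0.45). Dotted lines mark 1.5-fold above larva in egg and 1.5-fold below larva in adult, and the 12 egg-gain members lie to the right while Bm-86 stands alone at the lower left.

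Among the egg-gain members, Bm-158 had the highest egg level. Its log2 ratio was 1.45 (Cy5) and 1.38 (Cy3) in egg, against 0.24 (Cy5) and 0.16 (Cy3) in adult. The egg signals of 705 and 1484 intensity units stood beside larval signals of 259 and 572. The difference between egg and adult was 1.21 (2.32-fold), almost the same in each dye orientation (1.21 in Cy5 and 1.22 in Cy3). In pupa Bm-158 was near larva, at 0.08, from 1 spot. Its larval signal of 259 was below the background limit in that egg scan (504). In the adult scan with adult in Cy5, both its adult signal (598, limit 792) and its larval signal (507, limit 638) were below the limit.

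Bm-160 and Bm-183 were further members past 2-fold over larva in egg. Bm-160 was at 1.54 (Cy5) and 1.06 (Cy3) in egg, against 0.11 in the only adult spot kept (Cy3). Within Cy3, the 1 orientation measured at both stages, the difference was 0.95, below the 1.19 that placed it behind Bm-86 and Bm-158. That adult spot had 272 units in adult and 252 in larva, below the background limits (1568 and 1551) and below those from blank and buffer spots alone (274 and 371). Its adult ratio is thus a ratio of signals not above background, and with flagged spots kept the difference was 2.55, so its size and rank are uncertain. Bm-183 was at 1.61 (Cy5) and 0.91 (Cy3) in egg, against 0.09 (Cy5) and 0.32 (Cy3) in adult. It was brighter than background in every scan and channel. The difference was larger in Cy5 (1.52) than in Cy3 (0.59).

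Averaged over the dyes, Bm-36 and Bm-37 combined an egg level above larva with an adult level below it. In Cy3 alone, adult was near larva for Bm-36 and above it for Bm-37. Bm-36 was at 0.85 (Cy5) and 0.71 (Cy3) in egg, against -0.72 (Cy5) and -0.04 (Cy3) in adult. Bm-37 was at 1.25 (Cy5) and 0.58 (Cy3) in egg, against -0.59 (Cy5) and 0.17 (Cy3) in adult. For both the adult value depended on the orientation, and the difference was 1.57 in Cy5 and 0.75 in Cy3 for Bm-36, and 1.84 in Cy5 and 0.41 in Cy3 for Bm-37. The adult signals of Bm-37, 759 in Cy5 and 462 in Cy3, were below the background limit in both scans. The adult signal of Bm-36 was above the limit in Cy5 (918) and below it in Cy3 (479). In that Cy3 scan the larval signals of Bm-36 (494) and Bm-37 (445) were also below the limit.

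Bm-102 and Bm-100 were above larva in both egg and adult, and further above it in egg. Bm-102 was at 1.17 (Cy5) and 1.07 (Cy3) in egg, against 0.24 (Cy5) and 0.30 (Cy3) in adult. It was bright throughout, with larval signals of 1497 to 5561, and its spots varied little (SD 0.09 in egg and 0.01 in adult, 3 spots each). Bm-100 was at 1.47 (Cy5) and 1.25 (Cy3) in egg, against 0.65 (Cy5) and 0.56 (Cy3) in adult. At 0.60 in adult it was the only member at least 1.5-fold above larva there (10.7% of 122 names were), so its egg gain exceeded the egg minus adult difference of 0.76.

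Of the other egg-gain members, Bm-159 and Bm-180 averaged close to the larval level in adult. Bm-159 averaged 0.81 ± 0.09 in egg and 0.01 ± 0.12 in adult, and Bm-180 averaged 0.74 ± 0.04 in egg and 0.00 ± 0.02 in adult (SD, 3 spots each, averaged over scans). The adult value of Bm-159 combined -0.17 (Cy5) and 0.20 (Cy3). In the scan with adult in Cy3, both names were below the background limits (1568 in adult and 1551 in larva). Bm-159 had 356 units in adult and 311 in larva there, and Bm-180 had 488 and 516. The egg values of Bm-43 (0.65, 1 spot), Bm-121 (0.72 ± 0.85) and Bm-28 (0.86 ± 0.16) came from a single orientation, which leaves any dye effect in them. For Bm-43 and Bm-121 the larval signal in egg scans was below the background limit, and the spread of Bm-121 exceeded its value. Bm-28 was at 0.36 in adult, also from Cy3 alone, with 499 units in adult and 387 in larva, both below the limits.

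**Figure D2:**
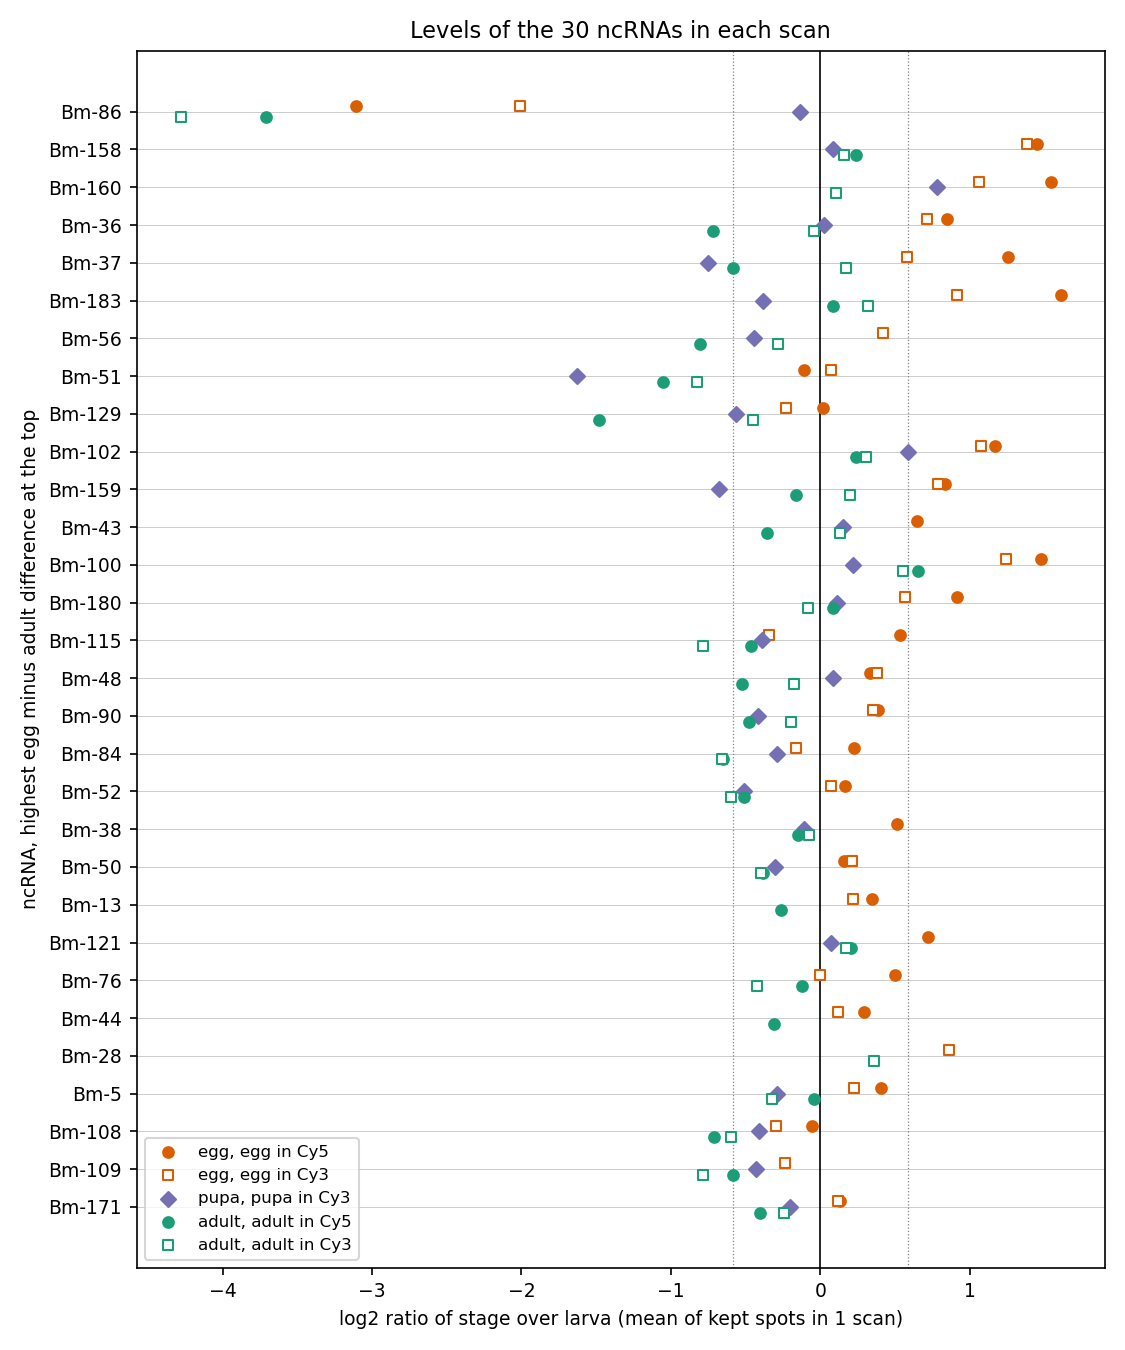
Log2 ratio of stage over larva (x axis) of each of the 30 members (rows, highest difference at the top) in each scan, with egg in orange, pupa in purple and adult in green, filled circles for Cy5 and open squares for Cy3. Dotted lines mark 1.5-fold above and below larva, and in every row with both orientations at both stages the egg point lies to the right of the adult point of the same dye.

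Bm-86 headed the list although it was below larva in egg. Its log2 ratio was -3.11 (Cy5) and -2.01 (Cy3) in egg, against -3.71 (Cy5) and -4.28 (Cy3) in adult. The egg signal of 691 in Cy5 faced a larval signal of 5936, and the adult signal of 1244 in Cy5 faced a larval signal of 16106. The difference was 0.60 in Cy5 and 2.27 in Cy3, the widest gap between orientations among the members. The adult signal behind the Cy3 value was 1426, below the background limit of that scan (1568). In the pupal scan, Bm-86 was at -0.13 ± 0.05 (SD, 3 spots), with 23212 units in pupa and 25487 in larva, so that egg and adult were both far below pupa and larva. Its place at the top of the list is thus a smaller deficit in egg than in adult, not a level above larva.

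Bm-51 and Bm-129 had the largest adult losses after Bm-86. Bm-51 was at -0.11 (Cy5) and 0.07 (Cy3) in egg, against -1.05 (Cy5) and -0.83 (Cy3) in adult, and the orientations gave similar differences (0.94 in Cy5 and 0.89 in Cy3). Bm-129 was at 0.02 (Cy5) and -0.23 (Cy3) in egg, against -1.48 (Cy5) and -0.45 (Cy3) in adult. Only 1 of its adult spots was kept in Cy3, where the difference was 0.22. Both names were near the larval level in egg.

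The remaining adult-loss members were Bm-84, Bm-108, Bm-109 and Bm-115, which lay between -0.69 and -0.63 in adult. Bm-84 averaged 0.03 ± 0.23 in egg and -0.66 ± 0.13 in adult, and Bm-108 averaged -0.17 ± 0.15 in egg and -0.66 ± 0.18 in adult (SD, 3 spots each). Bm-109 was at -0.23 in egg, from Cy3 alone, and at -0.69 in adult. Bm-115 changed sign between the egg scans, with 0.53 in Cy5 and -0.35 in Cy3, and was at -0.63 ± 0.09 in adult. Of the 7 adult-loss members, Bm-115 had the highest egg level, at 0.09, so none stood clearly above larva in egg.

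The 11 members short of both thresholds had egg values of 0.12 to 0.51 (median 0.28) and adult values of -0.56 to -0.11 (median -0.32). Every one was thus above larva in egg and below it in adult. Bm-56 differed by 0.96, from 0.42 in 1 egg spot and -0.54 ± 0.19 in adult, but by 0.70 in the 1 orientation measured at both stages. The larval signal of that egg spot (153) and its adult signals in both scans were below the background limit. Bm-48 was the brightest member, with stage signals of 13063 to 66601, and averaged 0.36 ± 0.03 in egg and -0.35 ± 0.05 in adult (SD, 3 spots each). All its adult spots lay within 2% of the highest adult signal of their scan. In the Cy3 scan 20 spots of 7 names were packed between 38559 and 39075 units, while their larval signals ran from 25309 to 48935, and in the Cy5 scan 7 spots of 3 names lay between 66195 and 66881. If these are ceilings of the scans, which was not tested, the adult ratio of Bm-48 and its difference are not exact. The egg part of the difference was close to 50% in Bm-48 (50.5%), Bm-13 (51.4%) and Bm-90 (52.5%), and smaller in Bm-52 (17.2%), Bm-171 (28.1%), Bm-50 (32.3%), Bm-44 (39.3%), Bm-56 (43.4%) and Bm-76 (47.4%). It was larger in Bm-5 (63.3%) and Bm-38 (81.7%). Bm-38, measured in 1 egg spot, had an egg signal of 177 and a larval signal of 124, both below the background limit.

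Of the 30 members, 21 were measured in both orientations at both stages, against 98 of the 122 names. Egg exceeded adult in both orientations in all 21, which the rule favours, against 41 of the 98 names. Over these 98, the difference between orientations gave a technical SD of 0.27 for the egg minus adult value. To read the difference in a scan that did not choose the names, the 30 highest of the 98 were taken from the scans with the stage in Cy5 and read in those with the stage in Cy3. Their median was 0.78 in Cy5 and 0.47 in Cy3, where all 98 had a median of 0.03, and 26 of the 30 were above 0 in Cy3 (52.0% of all 98). With the roles of the dyes exchanged, the median was 0.55 in Cy3 and 0.64 in Cy5, and 27 of the 30 were above 0 in Cy5 (53.1% of all 98). These readings come from the same pools, so they bear on labelling and hybridisation only.

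**Figure D3:**
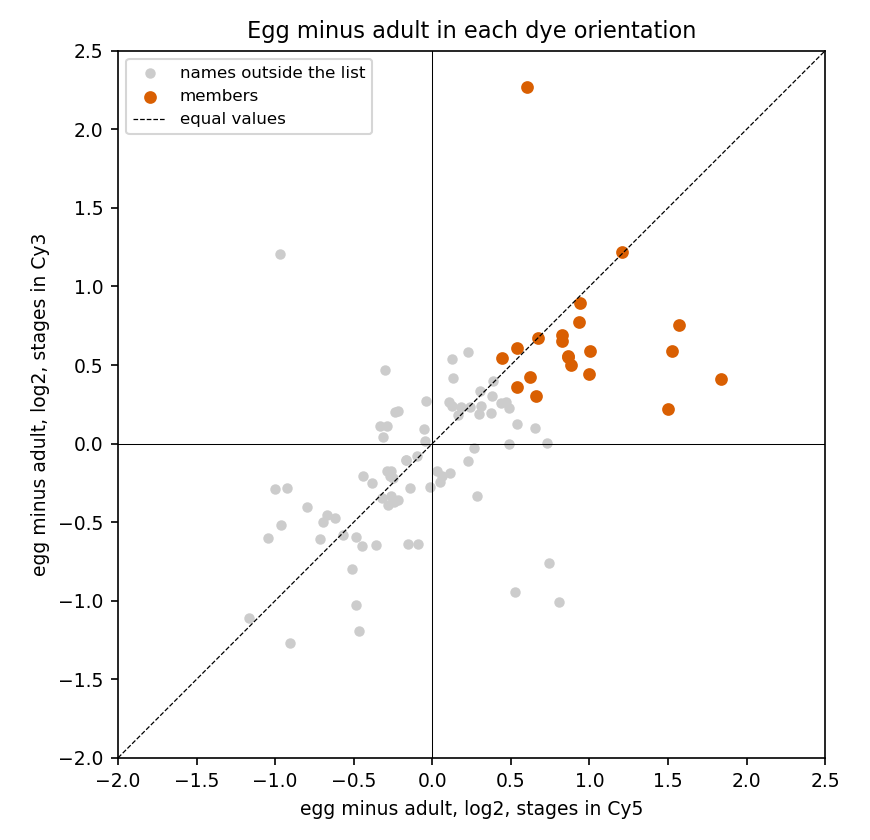
Egg minus adult (log2) with the stages in Cy5 (x axis) and in Cy3 (y axis) for the 98 ncRNAs measured in both orientations at both stages, with the 21 members among them in orange. All 21 lie above 0 on both axes, and Bm-86 has the highest value in Cy3 (2.27) but only 0.60 in Cy5.

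The pupal level was read from the scan with pupa in Cy3 and larva in Cy5. The other scan of the pupal table was not used, because its flags were the same as those of the scan with adult in Cy3 at all 561 spots, and the log2 red over green values of these scans differed with an SD of only 0.012 over 336 kept ncRNA spots. Keeping that scan as adult follows its label in the adult table and is a choice. Read as adult, its ratios had a Pearson r of 0.88 across ncRNAs with those of the other adult scan (112 names), against 0.68 between the egg scans (104 names). Read as pupa, they had an r of -0.38 with the pupal scan used (108 names). These correlations are across names that share pools and probes. Values with the stage in Cy5 alone do not use that scan, and 24 of the 30 members were also in the list of 30 made from them. These Cy5 values are part of the difference that chose the members, so the rule favours this overlap. Bm-28, Bm-56, Bm-109 and Bm-160 had no difference in Cy5 and could not be in that list. In the scan used, 26 of the 30 members had a value. Bm-13, Bm-28, Bm-44 and Bm-76 had none. The members had a median pupal log2 ratio of -0.29, against -0.03 in the 81 names outside the list, and 17 of the 26 were below larva (56.1% of 107 names). At 1.5-fold, 3 members were lower in pupa (6.54% of 107) and 2 were higher (7.48% of 107). At 2-fold, 1 was lower (3.74% of 107) and 0 were higher (0.935% of 107). These values are from 1 pool in a single orientation, any dye effect is still in them, and the shift was not tested.

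The 3 lower members were Bm-51 at -1.63 ± 0.10 (SD, 3 spots), Bm-37 at -0.75 from 1 spot and Bm-159 at -0.68 ± 0.40 (SD, 2 spots). The pupal signals of Bm-51 (345) and Bm-37 (252) were below the background limit (369). The 2 higher were Bm-160 at 0.78 ± 0.15 and Bm-102 at 0.59 ± 0.09 (SD, 3 spots each), both egg-gain members. The 11 egg-gain members with a pupal value had a median of 0.08 and spread widely around larva. Of these, 3 were below it (Bm-37, Bm-159 and Bm-183), against 56.1% of 107 names.

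Among the 7 adult-loss members, pupa was below larva in each, with a median of -0.41, against 56.1% of 107 names below larva. Bm-104 (-0.07) and Bm-79 (-0.09), outside the list but also at least 1.5-fold below larva in adult, were likewise below it in pupa. The values were -0.13 for Bm-86, -1.63 for Bm-51, -0.56 for Bm-129, -0.39 for Bm-115, -0.29 for Bm-84, -0.41 for Bm-108 and -0.43 for Bm-109. Low adult values chose this class, so pupa and adult are not compared here. The pupal and adult ratios share the larval pool, so low values at both stages are not independent. Of the 8 members short of both thresholds with a pupal value, 7 were below larva (56.1% of 107 names). The median of the 8 was -0.30, and Bm-48 was at 0.08.

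**Figure D4:**
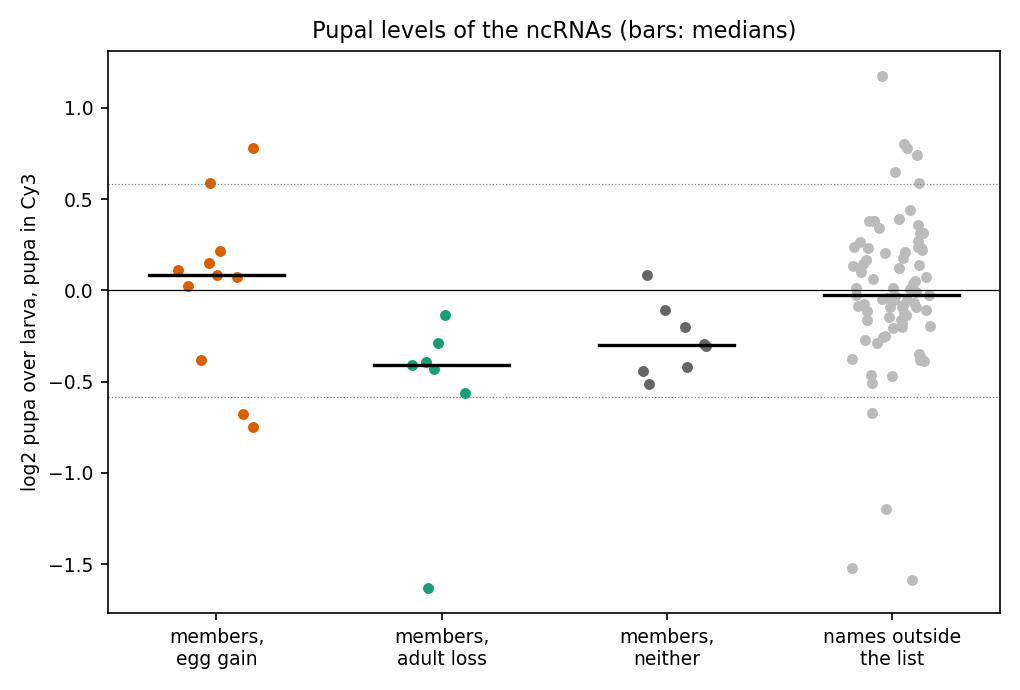
Log2 pupa over larva (y axis), from the scan with pupa in Cy3, for the egg-gain (11), adult-loss (7) and other (8) members and for the 81 names outside the list, 1 point per name with a bar at the median. The adult-loss members all lie below 0, as do 56.1% of all 107 names, and the egg-gain members lie on both sides of it.

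Within the Cy3 orientation, where egg, pupa and adult carried the same dye, pupa was nearer to adult than to egg in 17 of 23 members (54.5% of 99 names). The egg and adult values of this count also chose the members. Egg was the highest of the stages, larva included, in 21 of 26 members (34.6% of 107 names), a count that the rule likewise favours. Larva was highest in the other 5, which were all adult-loss members (Bm-51, Bm-86, Bm-108, Bm-109 and Bm-129). In none (0) was pupa or adult highest. The label of egg-biased ncRNAs therefore holds against adult for every member by construction. Against all stages, it holds by value for 21 of the 26, with egg averaged over dyes and pupa in Cy3 only. Of these 21, Bm-84 and Bm-115 averaged only 0.03 and 0.09 above larva in egg. Both were below larva in the egg scan with egg in Cy3, at -0.16 and -0.35.

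The adult signals of the members were dim. In 16 of the 30 the adult signal was below the background limit in each scan that measured it, against 36 of the 122 names (29.5%). Of the adult-loss members these were Bm-129, Bm-115, Bm-109 and Bm-51, so by this measure their adult level was not above background. That limit was high in the scan with adult in Cy3 (1568), where 6 of the 27 spots named other negative control had 1481 to 3013 units. Against the 81 blank and buffer spots alone, whose 95th percentile in the adult channel was 451 (Cy5) and 274 (Cy3), only Bm-13 and Bm-160 of the members were below in every scan. The larval signal of the adult scans was also below the background limit in each measured scan in 9 of the 16, against 25 of 122 names (20.5%). These were Bm-5, Bm-13, Bm-28, Bm-38, Bm-43, Bm-44, Bm-76, Bm-121 and Bm-160. Their adult ratios are thus ratios of signals not above that limit. Against blank and buffer spots alone, only the larval signal of Bm-160 was below. The part of background in the adult values was not tested.

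Signals of the larval channel came from the same pool in every scan, but a member's larval signal was not constant between hybridisations. After each scan was centred on its median log2 signal over 92 names measured in all 5 scans used, the larval signal of a member spanned a median of 2.02 log2 units over those scans (20 members), close to the 2.25 of the names outside the list (72 names). The larval signal of Bm-160 was 1287 and 11416 in the egg scans, 426 in the pupal scan and 252 in the adult scan. After centring, it was 28.3-fold higher in egg than in adult scans, the largest such value of the 122 names.

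Bm-28 (6.07-fold), Bm-52 (5.35-fold), Bm-180 (2.53-fold), Bm-115 (2.12-fold) and Bm-44 (2.10-fold) also had a larval signal at least 2-fold higher in egg scans. These 6 of 30 members compare with 22.1% of 122 names. The larval signal was at least 2-fold lower in egg scans in 4 members (19.7% of 122 names), at 0.25-fold for Bm-86, 0.31-fold for Bm-56, 0.37-fold for Bm-48 and 0.41-fold for Bm-38. Bm-160, Bm-44, Bm-56 and Bm-38 each lacked 1 egg or adult scan, so their folds compare unlike dyes. In the dye measured at both stages, Bm-44 (centred log2 -0.48 in egg and -1.11 in adult) and Bm-56 (-3.15 and -2.19) were short of 2-fold. Bm-160 (3.07 and -3.14) and Bm-38 (-3.09 and -1.56) stayed past it. Over the members, the stage signal was higher in egg than in adult scans by a median of 0.79 and the larval signal by a median of 0.27. Stage signals enter the ratios that chose the members, so the rule favours higher ones in egg scans. The stage signal was higher in egg scans in 22 of the 30 members (47.5% of 122 names). In the other 8 it was lower, at -0.84 for Bm-56, -0.79 for Bm-48, -0.72 for Bm-38, -0.62 for Bm-86 and -0.33 for Bm-76, and between -0.13 and -0.07 for Bm-121, Bm-129 and Bm-102. Bm-38, Bm-56 and Bm-121 lacked 1 egg scan, so unlike dyes are compared in them. In each of these 8 the larval signal was lower still in egg scans, which follows largely from the choice of members by their ratios. In the names outside the list the medians were -0.36 for the stage and -0.32 for the larva. The ratio to larva removes what both channels of a scan share, and the egg minus adult difference rests on that removal. Whether the shift of the larval channel has a part in the ratios was not tested.

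**Figure D5:**
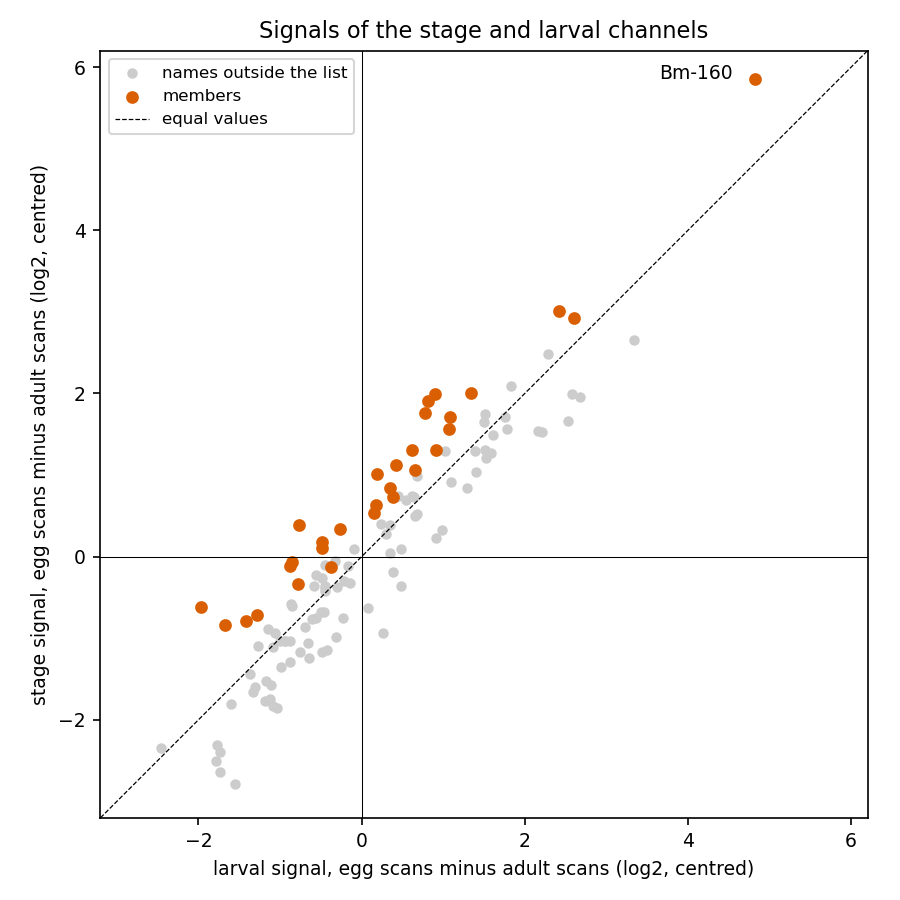
Egg scans minus adult scans of the log2 larval signal (x axis) and of the log2 stage signal (y axis), each scan centred on its median, for the 122 ncRNAs, with members in orange. Members lie above the dashed line of equal values, which follows largely from their choice by ratio. Both channels move together, and Bm-160 lies far from the rest at 4.82 (larva) and 5.85 (stage).

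Members were spread over the whole range of Bm numbers, with 10 of 43 measured names up to Bm-50, 8 of 33 from Bm-51 to Bm-100, 6 of 26 from Bm-101 to Bm-150 and 6 of 20 above. Several had neighbouring numbers, such as Bm-36, Bm-37 and Bm-38, Bm-50, Bm-51 and Bm-52, or Bm-158, Bm-159 and Bm-160. Counted member by member, there were 44 measured neighbours in number, and 16 of these were members (36.4%), against 24.6% of all names in the list. The 16 are 8 pairs of members counted from both sides and involve 13 members. A name outside the list can also count more than once. Across 83 pairs of adjacent numbers, the Pearson r of the egg minus adult difference was 0.18. What a number stands for is not stated in the sources used here, and whether neighbouring probes share sequence or place on the array was not tested.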

How the data were processed

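The authors deposited, for each stage, a table of red (Cy5) and green (Cy3) intensity per spot in 2 dye-swapped scans with a flag per scan, per the file headers. How they were scanned, background-corrected and normalized is not stated there or in the labels. Red and green were used as deposited, as if already balanced between dyes. The authors' deposited value table of log2 ratios per ncRNA served as an alternative. Spots whose deposited flag was 0 or above were kept, 292 to 340 of 396 ncRNA spots per scan.

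Log2 ratios of stage over larva were computed with Python 3.11.15, numpy 2.4.6 and pandas 2.3.3, without a pseudocount, as described above. No test was run, because each stage is 1 pool, and the number of arrays limits the precision. The calculation was tested on simulated data. Members and thresholds were chosen with earlier results of these data known. All 30 members are named. The 10 highest and some others are given by scan, and values are set beside the 95th percentile of negative spots. Alternatives were single dyes, names in both orientations, spot medians, flagged spots, median centring, leaving out dim spots, a pseudocount, the value table, other list lengths and a 2-fold threshold.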

Additional observations from a re-analysis of the deposited data

Results flagged for a closer look

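In Bm-48 and Bm-13 every kept spot and scan was above larva in egg and below larva in adult. The egg and adult values also chose the members, and no share over all names is given for this pattern. Bm-48 differed by 0.71 on the log2 scale between egg and adult, from 0.36 in egg and -0.35 in adult (6 spot values each). Its adult spots lay within 2% of the highest adult signal of each scan (66881 in Cy5 and 39075 in Cy3), and whether they were at a ceiling was not tested. After centring of scans its stage signal was lower in egg than in adult, at -0.79, and its larval signal lower still, at -1.42. That order of the channels follows largely from the choice of members by ratio. Bm-13 differed by 0.55, from 0.28 in egg (3 spot values) and -0.27 in adult (2 spot values). The adult spots, both with adult in Cy5 and so from 1 scan, had an SD of 0.37. That spread is larger than the size of their mean. Their mean signals of 365 in adult and 428 in larva were below the background limits (792 and 638), and 365 was also below that of blank and buffer spots (451). Each stage was 1 pool, and the difference was not tested.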

How the results depend on the processing

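No paired analysis was possible because each stage is 1 pool and no result comes from a test. Between 20 and 30 of the 30 names stayed in a list of 30 under the other settings, and 14 did under all 11. The median difference stayed between 0.57 and 0.82 and the pupal median between -0.29 and -0.17. Members with both an egg gain and an adult loss numbered 2 with the stage in Cy5, 1 with the stage in Cy3, 1 with flagged spots kept and 2 without the dimmest 25% of spots, against 0. A list of 20 left 5 members in neither class and a list of 40 left 18. At 2-fold there were 5 egg gains, 1 adult loss and 24 in neither class, and in pupa 1 lower and 0 higher. Higher in pupa was 1 member with Cy5 alone, with names in both orientations, without dim spots and with a pseudocount of 50 units, and lower was 1 without dim spots. Of 319 recomputed values of single members that were not identical to the reported one (154 were), 269 moved by less than their technical spread, 44 moved further and 6 changed sign, all 6 with flagged spots kept. Then egg minus adult was -0.39 for Bm-56, -0.25 for Bm-43 and -0.23 for Bm-121, egg over larva was -0.37 for Bm-43 and -0.10 for Bm-121, and pupa over larva was 0.45 for Bm-37. For 6 members (Bm-36, Bm-37, Bm-86, Bm-115, Bm-129 and Bm-183) the difference moved by more than the technical SD of 0.27 in either dye alone. The matched-dye difference, the list without Bm-86 and the choice in 1 dye were chosen after seeing the data. The cause of these shifts was not tested. Adult signals of 4 of the 7 adult-loss members were below the background limit in each scan that measured them, and against blank and buffer spots alone 0 were.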
